A study of Homo sapiens with 9 samples.

Results

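Regions of open chromatin held by all 4 ATAC-seq peak lists of the series numbered 29686 of 71597 (41.5%, 95% Wilson interval 41.1 to 41.8). They were chosen by pooling the peaks of the lists, merging peaks that shared at least 1 bp into regions, and keeping each region that overlapped a peak of every list. The presence of a peak in each list is therefore what chose them. Where shares of genes, promoters or places in all 4 lists are given below, they describe what this rule selected and are not independent findings. Of the other regions, 10224 lay in 3 lists, 11554 in 2 lists and 20133 in 1 list.

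The cells were HEK293T, an established human embryonic kidney line, grown without added treatment. The control (2 libraries) carried a guide RNA that targets no mammalian gene. The knockouts lacked IGF2BP1 (3 libraries), IGF2BP2 (2 libraries) or IGF2BP3 (2 libraries), and each was 1 clone grown from a single sorted cell after transient transfection of non-integrating plasmids with 3 guides and GFP. The 9 libraries came from 3 labelled batches, of which batch 1 holds IGF2BP1 knockout cells alone. The deposited lists give 1 set of peaks for each group with chromosome, start and end. With 1 list per group there was no spread between replicates and no test was made, and read depth was unknown. Genotype and clone cannot be told apart. Batches 2 and 3 each gave 1 library to every group, and the lists hold no values per library or batch. Intervals cover counting error over regions only.

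ATAC-seq uses the Tn5 transposase to place sequencing adapters into DNA that nucleosomes leave exposed. Promoters of genes used by every cell type are open in nearly all cells and are usually rich in CpG dinucleotides, whereas distal enhancers are open in fewer cell types. IGF2BP1, IGF2BP2 and IGF2BP3 are RNA-binding proteins known for binding messenger RNAs and affecting their stability, localisation and translation. A peak shows that DNA was accessible, not that a gene was transcribed.

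The 6 promoter sequences below belong to regions that the widths turned on. HIVEP2 and HECTD3 are shown because their regions were wide and nearly equal in every list, and LAMA5, SSTR1, ACHE and NBL1 because theirs were among the 5 coding-start regions that differed most between lists. Each sequence is the 250 bases before the most upstream listed start of the gene in the region, 5′ to 3′ on the gene's strand, from RefSeq on GRCh38.p14. Capitals mark the GC box (GGGCGG or CCGCCC), the CCAAT box (CCAAT or ATTGG) and the TATA box (TATAAA or TTTATA), read on both strands. HIVEP2 is shown from chr6:142945734-142945983 on the minus strand. HECTD3 is shown from chr1:45011325-45011574 on the minus strand. LAMA5 is shown from chr20:62367313-62367562 on the minus strand. SSTR1 is shown from chr14:38207654-38207903 on the plus strand. ACHE is shown from chr7:100896130-100896379 on the minus strand. NBL1 is shown from chr1:19644061-19644310 on the plus strand.
HIVEP2: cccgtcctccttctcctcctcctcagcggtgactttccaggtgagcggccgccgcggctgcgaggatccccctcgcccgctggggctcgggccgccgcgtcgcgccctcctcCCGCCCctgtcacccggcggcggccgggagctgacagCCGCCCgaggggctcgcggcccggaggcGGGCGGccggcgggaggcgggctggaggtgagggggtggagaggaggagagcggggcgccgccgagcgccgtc
HECTD3: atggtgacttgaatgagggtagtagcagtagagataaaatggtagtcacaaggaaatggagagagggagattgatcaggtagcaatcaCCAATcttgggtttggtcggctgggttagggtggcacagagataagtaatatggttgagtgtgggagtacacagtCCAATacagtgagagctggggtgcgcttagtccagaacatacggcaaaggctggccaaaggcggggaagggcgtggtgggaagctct
LAMA5: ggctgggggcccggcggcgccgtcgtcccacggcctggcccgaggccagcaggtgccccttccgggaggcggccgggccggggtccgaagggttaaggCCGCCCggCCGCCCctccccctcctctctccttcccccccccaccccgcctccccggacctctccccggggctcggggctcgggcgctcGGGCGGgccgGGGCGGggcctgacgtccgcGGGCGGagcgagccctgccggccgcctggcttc
SSTR1: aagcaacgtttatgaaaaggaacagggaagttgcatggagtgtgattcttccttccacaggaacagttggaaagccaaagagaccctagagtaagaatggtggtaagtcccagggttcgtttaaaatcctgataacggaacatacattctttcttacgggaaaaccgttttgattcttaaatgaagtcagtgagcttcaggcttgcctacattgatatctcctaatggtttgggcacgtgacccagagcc
ACHE: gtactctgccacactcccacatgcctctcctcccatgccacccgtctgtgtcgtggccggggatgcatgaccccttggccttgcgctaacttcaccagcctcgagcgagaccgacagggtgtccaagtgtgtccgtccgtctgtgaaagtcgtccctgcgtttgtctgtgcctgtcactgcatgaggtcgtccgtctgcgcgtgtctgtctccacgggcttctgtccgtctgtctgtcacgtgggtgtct
NBL1: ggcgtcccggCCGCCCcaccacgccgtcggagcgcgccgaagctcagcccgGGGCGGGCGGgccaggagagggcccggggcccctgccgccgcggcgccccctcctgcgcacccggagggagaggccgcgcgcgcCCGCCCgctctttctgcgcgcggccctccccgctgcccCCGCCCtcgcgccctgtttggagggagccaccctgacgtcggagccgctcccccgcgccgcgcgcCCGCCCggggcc

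HIVEP2 (80.0% GC) held 3 GC boxes, LAMA5 (82.8% GC) held 5 and NBL1 (84.4% GC) held 6. HECTD3 (50.4% GC) held 2 CCAAT boxes and no GC box. SSTR1 (43.6% GC) and ACHE (61.2% GC) held none of these letters. All 250 bases of HIVEP2 and of HECTD3 lay under a peak in every list. Of the LAMA5 stretch, 92 bases lay under a peak in the control, 250 in the IGF2BP1 knockout, and 0 in the IGF2BP2 and IGF2BP3 knockouts. The NBL1 stretch was covered whole in 3 lists and not at all in the IGF2BP2 knockout. The SSTR1 stretch was uncovered in the control, covered whole in the IGF2BP1 and IGF2BP2 knockouts, and covered over 23 bases in the IGF2BP3 knockout. The ACHE stretch was covered whole except in the IGF2BP3 knockout, where 93 bases were.

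Regions of all 4 lists carried the wide peaks of each list. They took 30025 of the control's peaks (76.6%), 29819 of the IGF2BP1 knockout's (58.6%), 30358 of the IGF2BP2 knockout's (50.4%) and 30131 of the IGF2BP3 knockout's (68.4%). Their share of covered bases was higher, at 84.5%, 67.5%, 62.7% and 77.6% in the same order. Median peak width inside them was 872 bp in the control against 520 bp for the control's other peaks, 988 against 670 bp in the IGF2BP1 knockout, 848 against 514 bp in the IGF2BP2 knockout and 842 against 529 bp in the IGF2BP3 knockout. A width that a caller reports moves with its threshold and the reads behind it, and the part of both in these values was not tested.

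The width of a region in a list was taken as the bases of the region under that list's peaks. Its median was 879 bp in the control (quartiles 659 and 1180), 991 bp in the IGF2BP1 knockout (750 and 1304), 864 bp in the IGF2BP2 knockout (647 and 1172) and 852 bp in the IGF2BP3 knockout (613 and 1169). The IGF2BP1 knockout list was thus the widest at the median and at both quartiles, and the other 3 lay close together, with the lower quartile lowest in the IGF2BP3 knockout. In 28672 regions (96.6%) each list had a single peak. A region was split into several peaks in 338 cases (1.14%) in the control, 133 (0.448%) in the IGF2BP1 knockout, 663 (2.23%) in the IGF2BP2 knockout and 436 (1.47%) in the IGF2BP3 knockout.

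**Figure D1:**
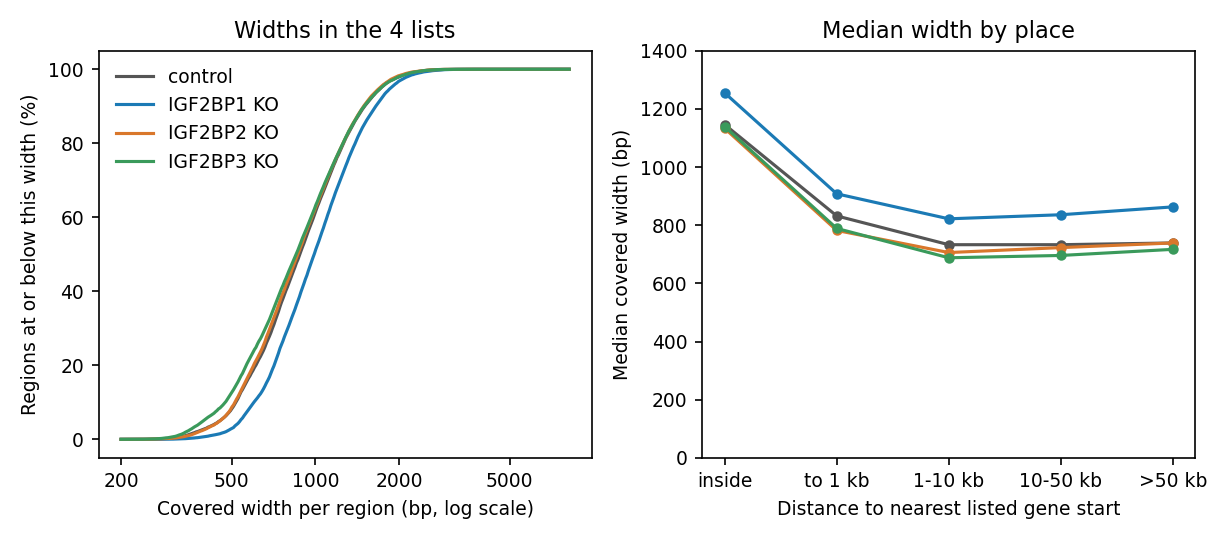
The left panel plots the percentage of the 29686 regions at or below each covered width (bp, log scale), 1 line per list, and the right panel the median covered width by distance to the nearest listed gene start. The IGF2BP1 knockout line lies to the right of the others, and the medians are 1133 to 1255 bp where a start lies inside and 717 to 863 bp beyond 50 kb.

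The 4 lists placed these regions at nearly the same positions. At the median, 717 bases of a region were common to all 4 lists, or 69.9% of it (quartiles 57.5 and 80.3%), in regions with a median length of 1081 bp. Among regions with 1 peak in each list, the midpoints of the 4 peaks spanned 105 bp at the median, their starts 143 bp and their ends 145 bp. Both edges lay within 50 bp in all lists in 955 regions (3.33%). At the limit of the rule, 44 regions (0.148%) had no base common to all 4 lists and were joined through overlapping neighbours, and 4 had 1 to 50 common bases. Just outside it, 2 of the 10224 regions of 3 lists had a peak of the missing list within 50 bp, and 346 had one within 1 kb. Those regions of 3 lists had a median width of 610 bp, and the missing list was the control in 4925, the IGF2BP3 knockout in 3690, the IGF2BP1 knockout in 967 and the IGF2BP2 knockout in 642.

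Gene starts were the place that set these regions apart. The RefSeq starts used held none on chromosome 8, so its 1057 members were not placed and its genes enter no count below. Of 28473 regions that could be placed, 11219 (39.4%, interval 38.8 to 40.0) lay within 1 kb of a listed start, 11083 (38.9%) elsewhere in a gene and 6171 (21.7%) outside genes. Within 1 kb lay 8.07% of the regions of 3 lists, 5.51% of those of 2 lists and 4.27% of those of 1 list. The share outside genes was 35.3%, 37.5% and 39.0% in those classes. The median distance to the nearest listed start was 8456 bp for regions of all 4 lists and 31278 bp, 36177 bp and 39351 bp for regions of 3, 2 and 1. Read from the genome's side, 88.7% of the 11965 regions with a start inside were in all 4 lists, against 26.2% of the 22203 regions more than 50 kb away.

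**Figure D2:**
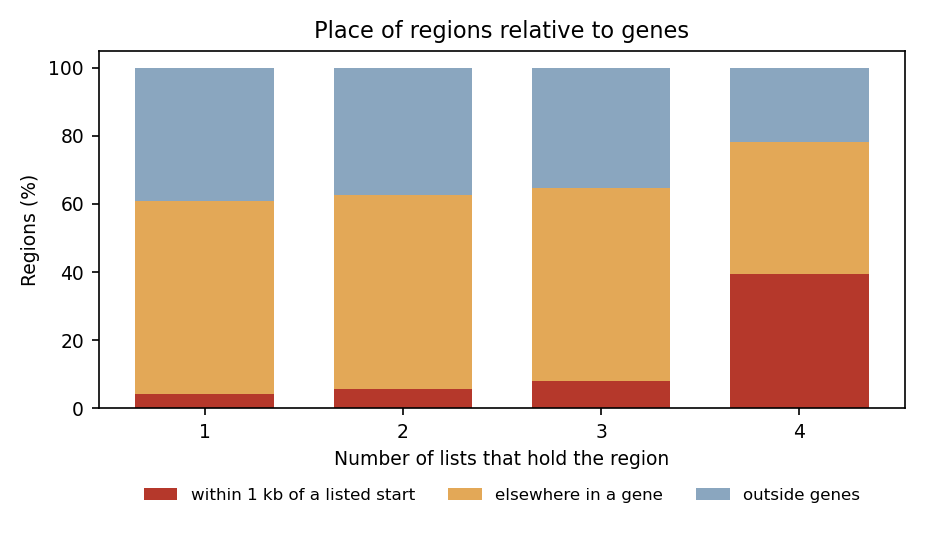
Stacked bars give the percentage of regions within 1 kb of a listed gene start, elsewhere in a gene and outside genes, by the number of lists that hold the region. The part at gene starts is 39.4% for regions of 4 lists and 4.27 to 8.07% for the others.

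Regions over a gene start were wider and steadier than regions far from one. Where a start lay inside (10609 regions), median widths were 1146 bp in the control, 1255 bp without IGF2BP1, 1133 bp without IGF2BP2 and 1139 bp without IGF2BP3. Beyond 50 kb (5815 regions) they were 739, 863, 739 and 717 bp in the same order. For comparison between lists, each width was divided by its list's median over the 29686 regions, and a region's variability is the log2 of the largest over the smallest of these 4 scaled widths. Its median was 0.30 with a start inside and 0.45 beyond 50 kb. Ordered by the smallest of their 4 widths, the 7419 narrowest regions (222 to 539 bp) held a start in 7.08% of placed cases and the 7428 widest (1046 bp and more) in 72.6%. Median variability was 0.62 in the narrowest and 0.26 in the widest, in an order that itself uses the smallest width. The part of width in the difference by place was not tested.

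Most protein-coding genes with a listed start began in such a region: 10281 of 15843 (64.9%), while 4846 (30.6%) began in no region of any list. Of the long noncoding RNA genes, 2686 of 11462 did (23.4%). A pair of genes starting in opposite directions was found in 2218 regions (20.9% of those with a start), and these were 1235 bp wide at the median in the control, against 1122 bp for regions with starts but no such pair. The most starts in 1 region were those of 4 genes on chromosome 12 (11171023 to 11172174), SMIM10L1, PRH1 and 2 read-through genes of PRH1, in a region of 1096, 1089, 889 and 1117 bp.

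**Figure D3:**
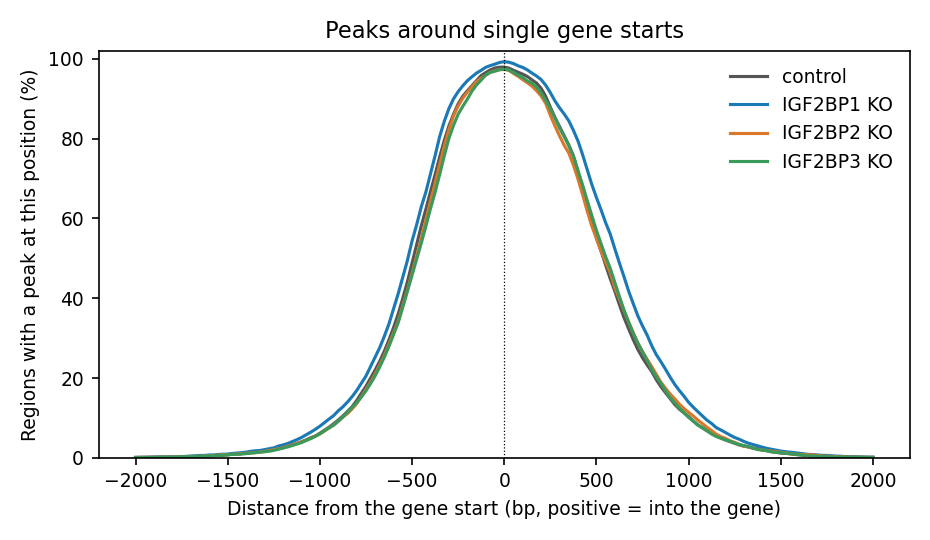
Each line gives, for 1 list, the percentage of 6370 regions with a single listed start that had a peak at each distance from that start (bp, positive into the gene). Coverage is highest at the start, at 97.3 to 99.3%, and the IGF2BP1 knockout line is the broadest.

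Around these single starts the peaks reached further into the gene than away from it. The median peak extended 493 bp upstream and 538 bp downstream in the control, 522 and 616 bp in the IGF2BP1 knockout, 480 and 543 bp in the IGF2BP2 knockout, and 474 and 554 bp in the IGF2BP3 knockout. The downstream side was the longer in 55.0%, 58.5%, 56.1% and 58.4% of regions. The IGF2BP1 knockout reached furthest on both sides, and this difference has no replicate check.

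The promoters that start in these regions were rich in CpG. In windows from 250 bases before to 50 after the start, the median GC content was 66.7% for 16030 starts inside a region of all 4 lists, 58.0% for 1573 starts inside a region of 1 to 3 lists and 48.7% for 17513 starts outside any region. The median number of CpG dinucleotides was 27, 11 and 4, and the ratio of observed to expected CpG was 0.85, 0.48 and 0.25. Of all 35116 promoters, 45.0% held a GC box, the binding element of SP factors. It was present in 73.1% of those in all 4 lists, 45.0% of those in 1 to 3 lists and 19.1% of those in no region.

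Other short motifs differed as well. The ETS element CGGAAGT (or ACTTCCG) was found in 12.6% of promoters in all 4 lists, 3.56% in 1 to 3 lists and 1.88% in no region, with 6.83% over all promoters. The NRF1 core GCATGCG (or CGCATGC) stood at 6.54, 2.29 and 1.64% (3.91% over all), and the YY1 element GATGGCG (or CGCCATC) at 7.21, 3.62 and 1.5% (4.2% over all). The TATA box went the other way, with 4.70% in all 4 lists, 10.4% in 1 to 3 and 17.9% in none (11.5% over all). The AP-1 element TGACTCA (or TGAGTCA) was found in 2.57% of promoters in all 4 lists but in 9.28% of those in 1 to 3 lists and 6.74% of those in none (4.95% over all). CCAAT boxes varied less, at 34.5, 29.3 and 35.2%. Among promoters of members, the share with a GC box was 53.8% for the 593 starts in the 7419 narrowest regions and 76.8% for the 8550 starts in the 7428 widest. GC-rich motifs are more frequent in GC-rich windows by composition alone, and a match is not a bound site.

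Most of the widest regions held a gene start, but the 5 widest lay at no listed one. The widest 1% (297 regions with at least 1974 bp in every list) held a listed start in 214 of 280 placed regions (76.4%), a protein-coding one in 207, and 98 of them were split in some list. By the smallest of the 4 widths, the first 2 lay on the mitochondrial genome, which carries no nucleosomes. The region from 10360 to 16470 measured 6008, 5329, 6111 and 6099 bp in the control and the IGF2BP1, IGF2BP2 and IGF2BP3 knockouts, the order used for all widths from here on. The region from 119 to 8166 measured 8038, 4181, 8041 and 6976 bp, and so was far shorter in the IGF2BP1 knockout. The next 3 were LOC102724701 on chromosome 21 (6369031 to 6372522), an unlocalised sequence of chromosome 17, and a region of chromosome 16 (46398376 to 46401590), with widths of 3013 to 3468 bp in every list.

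Among the widest regions at gene starts, SAMD4A, an RNA-binding regulator of messenger RNA, had 2899, 3144, 2955 and 3166 bp on chromosome 14 (54565086 to 54568293). SPRY1, a feedback inhibitor of growth factor receptor signalling, had 2857, 3107, 3150 and 2915 bp on chromosome 4 (123396657 to 123399806). HIVEP2, a zinc finger transcription factor whose promoter is printed above, had 2969, 3196, 2859 and 2845 bp on chromosome 6 (142944426 to 142947680). ADGRL3, a latrophilin adhesion receptor, had 2824, 3479, 3417 and 3315 bp, the narrowest in the control. These 4 regions differed by at most 1.23-fold in scaled width across the lists. KLF12, a Krüppel-like repressor, measured 2783, 2895, 2731 and 2701 bp, and PFN1, which encodes the actin-binding protein profilin and shares its region with ENO3, measured 2672, 3028, 2718 and 2717 bp. SQSTM1, the autophagy receptor p62, measured 3168, 3156, 2636 and 2952 bp.

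Some wide promoters kept almost the same scaled width in all lists. HECTD3, a ubiquitin ligase gene, and UROD, a heme biosynthesis gene on the opposite strand, shared a region on chromosome 1 (45010485 to 45012997) with 2234, 2513, 2241 and 2192 bp, which is 1.02-fold from the smallest to the largest scaled width. PRKAG2, a subunit of the energy sensor AMPK, had 2484, 2686, 2386 and 2400 bp (1.04-fold). REV3L, the catalytic subunit of the translesion polymerase zeta, had 2039, 2417, 2125 and 1994 bp (1.06-fold), and GPC6, a glypican, had 2221, 2443, 2269 and 2212 bp (1.07-fold). PHPT1, HIVEP2, PFN1, NBEA, BTG3 and DIPK2A completed the 10 steadiest of the widest 1%, with 1.05 to 1.07-fold.

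Ranked by the largest of the 4 widths, the 3 narrowest regions lay inside genes and away from starts. Those in ATRX (257, 275, 274 and 272 bp), TTC34 (267, 267, 262 and 278 bp) and EML1 (270, 267, 265 and 280 bp) were 19.2 to 159.6 kb from a listed start.

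Across all members the 4 scaled widths differed little. Median variability was 0.37 on the log2 scale, a 1.29-fold range, and the 95th percentile was 1.06 (2.08-fold). At least 2-fold variability was reached by 1837 regions (6.19%). It was reached by 3.05% of regions with a start inside and 9.25% of those beyond 50 kb. Among the 1837, the widest list was the IGF2BP1 knockout in 35.2% and the narrowest the IGF2BP3 knockout in 41.0%. Over all members the IGF2BP1 knockout was the widest in 18.5% and the narrowest in 32.9% on the scaled widths, and the IGF2BP3 knockout the narrowest in 25.3%. Regions beyond 50 kb were also narrower than those at starts, and the part of width in this difference was not tested.

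The most variable region was at LAMA5, which encodes the alpha-5 chain of basement membrane laminin. On chromosome 20 (62365700 to 62368339) it measured 1705, 2614, 842 and 339 bp, a 6.63-fold range after scaling. The control and IGF2BP1 knockout were wide and the IGF2BP2 and IGF2BP3 knockouts narrow. ACHE, acetylcholinesterase, had the same order of wide and narrow lists on chromosome 7 (100894921 to 100897542), with 2593, 2622, 1058 and 572 bp (4.39-fold). NDST1, an enzyme of heparan sulfate sulfation, did as well, with 1463, 1499, 755 and 408 bp (3.48-fold).

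At SSTR1, a somatostatin receptor gene, the control was the narrow list. On chromosome 14 (38207476 to 38209596) its region measured 400 bp in the control and 2121, 1803 and 1653 bp in the knockouts (4.70-fold). CADM3, a cell adhesion gene, measured 332, 1008, 711 and 1217 bp, again with the control lowest.

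The promoters of HIC2, NBL1 and PIGZ were narrow in the IGF2BP2 knockout list. HIC2, a transcriptional repressor, measured 1445, 1809, 402 and 1697 bp on chromosome 22 (21416515 to 21418323). NBL1, a secreted antagonist of bone morphogenetic proteins, measured 1568, 1329, 379 and 1461 bp on chromosome 1 (19643764 to 19645331). PIGZ, a mannosyltransferase of GPI anchor synthesis, measured 1608, 1752, 481 and 1927 bp. In each, the other 3 lists lay between 1329 and 1927 bp. These regions were picked for a large difference between lists, so the gap describes that choice. TBL1X, a corepressor subunit (922, 1515, 711 and 339 bp), and ELF3, an epithelial ETS factor (638, 1475, 662 and 341 bp), were widest in the IGF2BP1 knockout and narrowest in the IGF2BP3 knockout. ZNF316, a zinc finger gene, was wide in the IGF2BP1 knockout alone (520, 1723, 502 and 431 bp).

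**Figure D4:**
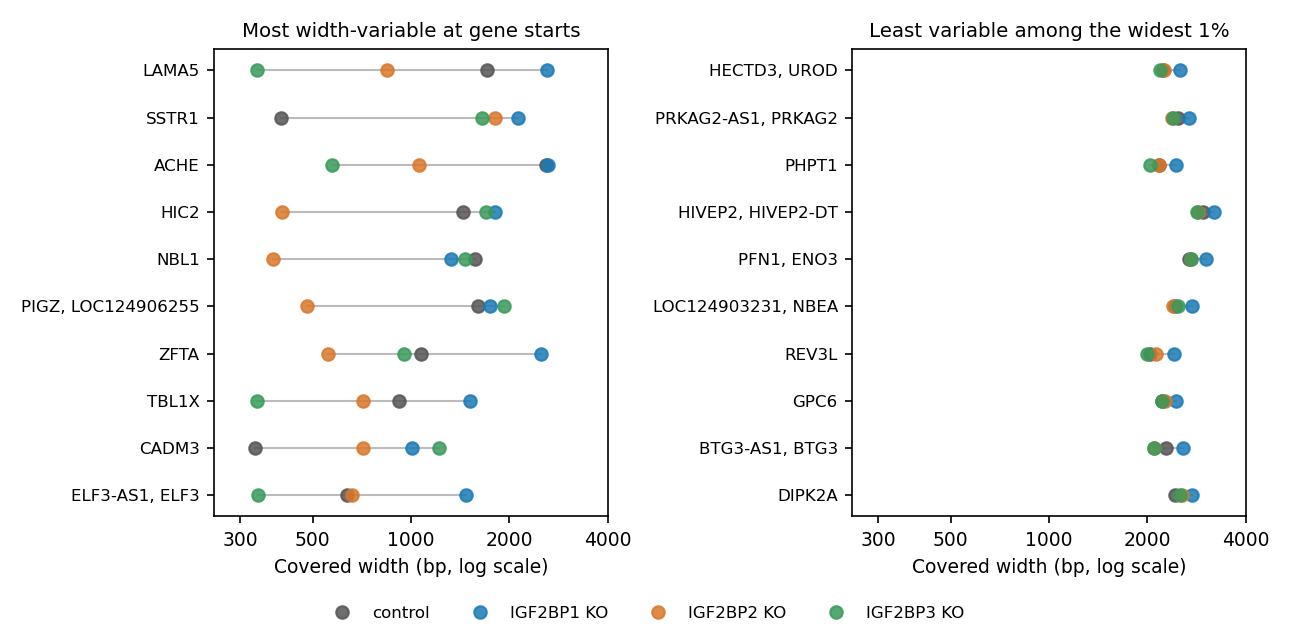
Points give the covered width (bp, log scale) in each of the 4 lists. On the left are the 10 most width-variable regions at a protein-coding start, among those with 1 peak in each list. On the right are the 10 least variable among the widest 1%. LAMA5 spans 339 to 2614 bp, while HECTD3 with UROD spans 2192 to 2513 bp.

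Away from promoters, single lists also stood apart. A region 41.8 kb from TSC22D3 on the X chromosome (107672972 to 107674682) measured 1699 bp in the control and 369, 508 and 374 bp in the knockouts, and one in RPS19 downstream of its promoter measured 1471, 575, 454 and 326 bp. Regions in B4GALT6 (408, 1886, 428 and 430 bp), MPPED2 (673, 2207, 526 and 433 bp) and TENM4 (571, 1515, 305 and 339 bp) were wide in the IGF2BP1 knockout. Regions in ADGRV1 (497, 611, 1151 and 339 bp) and PLCE1 (1349, 972, 2712 and 1052 bp) were wide in the IGF2BP2 knockout, and one in RNF220 (1381, 1704, 302 and 959 bp) was narrow there. The regions in MPPED2, ADGRV1 and RNF220 had no base common to all 4 lists. Their widths thus compare peaks at partly different positions. The region in FTX, a long noncoding RNA gene, was wide in the IGF2BP3 knockout (346, 329, 313 and 983 bp), and those in STOX2 (1490, 1781, 1588 and 358 bp) and COLEC11 (1168, 1270, 837 and 244 bp) were narrow there.

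Each knockout list was then set against the control list, which all 3 share. At 1.5-fold in scaled width, 1466 regions (4.94%) were wider and 561 (1.89%) narrower in the IGF2BP1 knockout. With unscaled widths these counts were 2759 and 224, so the wider share of the regions past 1.5-fold went from 72.3% to 92.5%, with regions wider in that list by 0.12 on the log2 scale at the median. In the IGF2BP2 knockout 1268 (4.27%) were wider and 1296 (4.37%) narrower. In the IGF2BP3 knockout 1289 (4.34%) were wider and 1877 (6.32%) narrower. Between 89.3 and 93.2% of regions stayed within 1.5-fold of the control. When each list was instead given the control's distribution of widths (quantile scaling), the IGF2BP3 knockout had 1315 wider and 1508 narrower. Its wider share of the regions past 1.5-fold went from 40.7% to 46.6%.

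The shares past 1.5-fold were lower among regions with a gene start. In the IGF2BP1 knockout 2.35% of regions with a start were wider and 0.943% narrower, against 6.43% and 2.45% of those without. The corresponding shares were 1.69 and 2.92% against 5.75 and 5.23% in the IGF2BP2 knockout, and 2.30 and 2.64% against 5.46 and 8.54% in the IGF2BP3 knockout. A region was wider than the control in all 3 knockouts in 307 cases (1.03% of members, 36 with a listed start). It was narrower in all 3 in 107 cases (0.36%, 12 with a start). These counts share 1 control list and so are not 3 independent observations. Of all placed members, 37.3% held a listed start. Between the knockouts, the IGF2BP1 list was wider than the IGF2BP2 list in 1502 regions (5.06%) and narrower in 563 (1.9%). It was wider than the IGF2BP3 list in 2162 (7.28%) and narrower in 718 (2.42%), and the IGF2BP2 list was wider than the IGF2BP3 list in 1755 (5.91%) and narrower in 1289 (4.34%).

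Gene groups differed in how many of their members began in a region of all 4 lists, against 64.9% of all protein-coding genes with a listed start. Every proteasome subunit (27 of 27), respiratory complex I subunit (32 of 32), cytosolic tRNA synthetase (16 of 16) and splicing factor of the SR and hnRNP families (26 of 26) with a listed start did, as did 59 of 63 cytosolic ribosomal protein genes. Host genes of small nucleolar RNAs and abundant long noncoding RNAs did in 16 of 17 cases, against 23.4% of long noncoding RNA genes. ZNF-named zinc finger genes did in 343 of 437 cases and immediate-early and stress genes in 23 of 30. Replication-dependent histone genes stood at 35 of 53, kidney development genes at 19 of 29, developmental factors (SOX, PAX, LHX, GATA, T-box and forkhead families and the sine oculis homologues) at 45 of 70, and innate immune genes at 35 of 58. HOX genes (10 of 20), clustered protocadherins (7 of 47) and olfactory receptors (3 of 314) lay below the share of all genes.

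**Figure D5:**
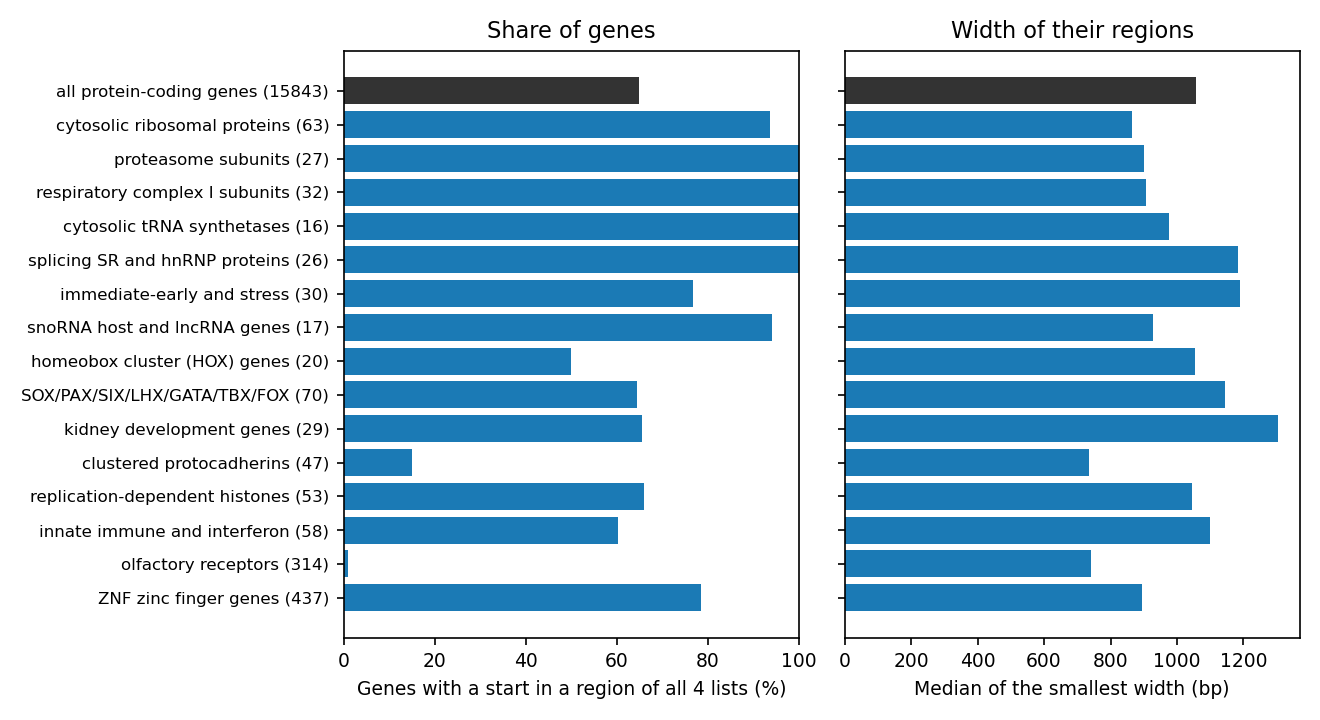
Bars give, for each gene group, the percentage of genes with a start in a region of all 4 lists (left; number of genes with a listed start in parentheses) and the median of the smallest of the 4 widths of their regions in bp (right). The black bar is all protein-coding genes, at 64.9% and 1057 bp.

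Region width varied between the gene groups. Here and below, each gene is represented by the widest member at one of its starts. For all protein-coding genes this gave 9261 regions, called coding-start regions, of the 9675 members with a protein-coding start. The median of the smallest width was 1057 bp for all protein-coding genes, 866 bp for ribosomal proteins, 902 bp for proteasome subunits and 906 bp for complex I subunits. It was 1184 bp for splicing factors, 1189 bp for immediate-early genes, 1145 bp for the developmental factors and 1304 bp for kidney development genes. Of the coding-start regions 21.6% were in the widest 10% of members, compared with 5 of 59 for ribosomal proteins, 1 of 27 for proteasome subunits, 10 of 26 for splicing factors, 17 of 45 for developmental factors and 9 of 19 for kidney development genes.

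Among ribosomal proteins RPL7A was the widest (1651, 1990, 1951 and 1609 bp) and RPL13 the narrowest and most variable (746, 788, 637 and 364 bp). NDUFS6, a complex I subunit, reached the widest 1% with 2362, 2497, 2158 and 2195 bp. HNRNPF was the widest of the splicing factors (1848, 2207, 1928 and 1929 bp). Among immediate-early genes DUSP1, a phosphatase of MAP kinases, had 2032, 2135, 2016 and 2238 bp, and HSP90AB1, a chaperone, ranged from 1162 bp in the IGF2BP2 knockout to 2087 bp in the IGF2BP3 knockout. MIR17HG, the host gene of the miR-17 cluster, had 2360, 2387, 2416 and 2428 bp. The widest kidney gene was PAX2, a transcription factor of the early kidney, with 2712, 2596, 2484 and 2552 bp, followed by TBX18 (2506, 2696, 2293 and 2506 bp) and GFRA1, a GDNF co-receptor (2650, 2252, 2505 and 2218 bp).

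Median variability was 0.29 over the 9261 coding-start regions, the widest for each gene. It was 0.33 for developmental factors, 0.31 for kidney development genes, 0.33 for ribosomal proteins and proteasome subunits, and 0.51 for HOX regions. At least 2-fold variability was found in 9 of 45 developmental factor regions (20.0%), in 3 of 9 HOX regions and in 3 of 19 kidney development regions. Of all coding-start regions 2.67% reached it. GATA3 and HOXD11 stand behind 2 of these kidney regions and are also counted among the developmental factors and the HOX genes. The HOX regions at 2-fold (HOXA13, HOXC4 with HOXC5, and HOXD11) were all split in some list, so their widths add separate peaks. So were those of FOXA1, FOXF2, FOXQ1, GATA2, GATA3 and PAX6, while FOXN4, FOXD2, TBX10 and ESRRB had 1 peak in each list. Among HOX regions with 1 peak in each list, the most variable was HOXA10 at 0.57. At least 2-fold variability was found in 0 of 59 ribosomal, 0 of 27 proteasome, 0 of 32 complex I and 0 of 26 splicing factor regions, groups in which the background share would give few. FOXN4 measured 1506, 1738, 597 and 1010 bp, FOXD2 1089, 1236, 799 and 1776 bp, and ESRRB 1597, 1663, 704 and 962 bp. In the IGF2BP2 knockout 7 of the 45 factor regions were narrower than in the control, against 2.63% of coding-start regions, and 1 was wider (1.57%). In the IGF2BP1 knockout 2 were wider (background 2.12%) and 2 narrower (0.842%), and in the IGF2BP3 knockout 4 were wider (2.09%) and 2 narrower (2.28%).

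The following genes of these groups were chosen after their values were seen. Each of their regions was split into 2 peaks in at least 1 list, where the width given is the sum over those peaks. FOXA1, a pioneer transcription factor, measured 1005 bp in the control and 2207, 1659 and 2229 bp in the knockouts, past 1.5-fold in all 3. FOXF2 and FOXQ1, neighbours on chromosome 6, measured 1867, 718, 750 and 1297 bp and 2394, 2983, 1249 and 2530 bp, so that both were narrow in the IGF2BP2 knockout and only FOXF2 in the IGF2BP1 knockout. HOXA13 measured 1051, 2066, 1041 and 2253 bp, and HOXD11 1920, 1951, 1491 and 817 bp. GATA3 was narrow in the IGF2BP1 knockout (1196, 663, 1395 and 1003 bp). Apart from FOXA1, no developmental factor region was past 1.5-fold in the same direction in all 3 knockouts.

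Of 26 histone gene regions, 1 was narrower than in the control in the IGF2BP1 knockout (0.842% of all coding-start regions), 3 in the IGF2BP2 knockout (2.63%) and 5 in the IGF2BP3 knockout (2.28%). In the same order 0, 0 and 1 were wider, against 2.12%, 1.57% and 2.09% of coding-start regions. The region shared by H2AC7, H3C4 and H2BC7 on chromosome 6 (26197960 to 26199958) measured 1978 bp in the control and 1268, 1071 and 1003 bp in the knockouts. H3C2 measured 1102, 960, 557 and 501 bp, and the region of H2BC21 and H2AC20 on chromosome 1 measured 1861, 1804, 885 and 887 bp, both narrow in the IGF2BP2 and IGF2BP3 knockouts. H3C1 was steady at 1886, 1944, 2020 and 1938 bp. Histone genes lie close together and are near-identical in parts of their coding sequence, so single histone genes are uncertain here.

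Of 23 immediate-early and stress gene regions, 1 was wider and 1 narrower in the IGF2BP1 knockout, 0 in either direction in the IGF2BP2 knockout, and 1 wider and 1 narrower in the IGF2BP3 knockout. Among coding-start regions 2.12%, 1.57% and 2.09% were wider and 0.842%, 2.63% and 2.28% narrower in the same order. Such small counts cannot be set apart from these shares. At least 2-fold variability was found in 2 of the 23, against 2.67% of coding-start regions. FOS measured 2518, 1387, 1960 and 2548 bp, narrow in the IGF2BP1 knockout, and FOSL2 measured 940, 1448, 1299 and 1516 bp. Among 35 innate immune regions, 1 was wider in each knockout (2.12%, 1.57% and 2.09% of coding-start regions), and 0, 1 and 1 were narrower (0.842%, 2.63% and 2.28%), counts near the background. NFKB2, a subunit of NF-kappaB, measured 1095, 2130, 1706 and 1248 bp, and MX1, an interferon-induced GTPase, measured 840, 924, 975 and 482 bp. NFKB1 (1969, 1966, 1986 and 2121 bp) and IKBKG (1731, 1954, 1631 and 1676 bp) were wide with little range.

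The labelled cell type was looked up through gene starts, where 64.9% of all coding genes with a listed start lay in a region of all 4 lists. Of 8 kidney and HEK293 lineage markers with a listed start, 6 began in a region of all 4 lists: PAX2, WT1, SIX2, CDH2, VIM and NES. PAX8 and KRT8 began in no region. CDH2, the cadherin of mesenchymal and neural cells, measured 1767, 3229, 2790 and 3103 bp, and NES, nestin, measured 1111, 1059, 939 and 445 bp. Markers of hepatocytes (0 of 2), blood (0 of 2), keratinocytes (0 of 1) and pancreas (0 of 3) began in none, and of the muscle markers ACTN2 did (1 of 3).

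At the targeted genes, a peak list cannot show the edit or the protein. The region at the end of IGF2BP1 where the gene begins, on chromosome 17 (48995288 to 48998007), measured 2434, 2392, 907 and 2369 bp, so it was as wide in its own knockout as in the control and narrow in the IGF2BP2 knockout. The IGF2BP2 start region on chromosome 3 (185824267 to 185826393) measured 1534, 1906, 1117 and 1773 bp, lowest in its own knockout. At IGF2BP3 the start region was held by 2 lists and so is no member, and its member inside the gene on chromosome 7 (23357349 to 23358357) measured 518, 1009, 684 and 581 bp.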

How the data were processed

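The 4 BED files, 1 per group, gave peak coordinates without heights or scores, as deposited by the authors. The only other number they hold is the width a peak's coordinates imply. The submitters' processing notes name fastp 0.24.1, BWA 0.7.17, MACS2 3.0.0, bedtools and GRCh38, without roles or settings. How libraries were combined is not given in the sources used here. Regions, widths and medians were computed with Python 3.11.15 (numpy 2.4.6, pandas 2.3.3) and tested on simulated data. Coordinates count from 1. Gene starts are the 35116 starts of 27305 genes in a RefSeq table of GRCh38.p14, which held none on chromosome 8. The 1213 members on sequences without a listed start, 1057 of them on chromosome 8, were not placed. Counts by gene start, gene group or promoter therefore leave out the genes of chromosome 8. Calls were 1.5-fold for a knockout against the control and 2-fold for variability, on scaled widths. Named regions were the 10 widest, the 10 most variable and, for each list, the 3 widest and 3 narrowest relative to the other lists (both among regions with 1 peak in each list), the 3 narrowest, the 5 genes with the most members, the 10 steadiest of the widest 1%, and the widest and most variable of each gene group; the same rankings over gene starts were added later. The members and gene lists were chosen with earlier results of these data known.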

Additional observations from a re-analysis of the deposited data

How the results depend on the processing

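The count of 29686 regions stayed within 1.5-fold when touching peaks were joined, peaks were trimmed to 200 bp or lists were shortened to their 39194 widest peaks, but trimming left 5287 coding genes starting in such a region against 10281. The share at gene starts (39.4%) was 38.4% within 500 bp, 41.1% within 2 kb, 35.4% for protein-coding genes, 46.4% with shortened lists and, in a setting added after seeing the data, 48.6% for either end of a gene. Median widths in the control and the IGF2BP1, IGF2BP2 and IGF2BP3 knockouts were 866, 973, 850 and 838 bp with 1 peak in each list, and 974, 1087, 958 and 954 bp with shortened lists. The IGF2BP2 knockout median was 856 bp with the widest single peak. Without scaling, the IGF2BP1 knockout had 2759 wider and 224 narrower regions, and median variability was 0.40. At 2-fold, wider and narrower counts were 335 and 80, 221 and 278, and 248 and 382. At 1.5-fold with quantile scaling they were 1464 and 721, 1244 and 1364, and 1315 and 1508 in the same order. For the 24 list-specific and 10 most variable named values, from 25 distinct regions, the 68 values under 2 other scalings lay within 1.5-fold of those reported, and 0 of the list-specific ones changed direction. Other named regions were not recomputed. No paired analysis was possible because each group has 1 list. Depth per list is unknown, so widths near the detection limit cannot be weighted by it.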

Other observations

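The share of a chromosome's regions held by all 4 lists ran from 25.6% on chromosome 13 to 57.1% on chromosome 19, where 51.6% of the placed members held a gene start against 29.0% on chromosome 13. Chromosome 13 had the highest share of members with at least 2-fold variability (8.96%, against 6.19% of all members). On it 9.33, 8.58 and 9.08% of members were wider than in the control in the IGF2BP1, IGF2BP2 and IGF2BP3 knockouts. Over all members these shares were 4.94, 4.27 and 4.34%. Members narrower than in the control reached 10.7% on chromosome 16 and 9.30% on chromosome 19 in the IGF2BP3 knockout, against 6.32% of all members. They reached 8.44% on chromosome 11 in the IGF2BP2 knockout (4.37% of all members) and 3.70% on chromosome 17 in the IGF2BP1 knockout (1.89%). These chromosomes were named because their shares were high.

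Some long genes held many members. PCDH9, a protocadherin, held 25 of its 90 regions in all 4 lists, GMDS, an enzyme of GDP-fucose synthesis, 21 of 42, NAV2 20 of 36, GPC5, a glypican, 16 of 67, and RANBP2 16 of 48 over the span RefSeq gives it. These genes were named for their number of members, not for the share of their regions in all 4 lists. Of all regions, 41.5% were in all 4 lists. The shares of PCDH9, GPC5 and RANBP2 lay below this, and those of GMDS and NAV2 above it. PCDH9 and GPC5 lie on chromosome 13, where the share was 25.6%. In all, 14373 protein-coding genes held at least 1 member over their span, with a median of 1, and 34 held 10 or more.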
